A study of Mus musculus with 26 samples.

Results

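The measurements below follow wild-type (WT) S49 cells from 6 to 24 h of exposure to a cyclic AMP (cAMP) analog. They were chosen by array title: the 3 WT arrays at 24 h were set against the 3 WT arrays at 6 h, 6 of the 26 arrays of the study. S49 is a mouse T-lymphoma line, and the study followed messenger RNA in WT cells and in Kin-, a derived line in which the cAMP-dependent protein kinase (PKA) is known to be inactive. Cells of either line were untreated (0 h, 4 arrays) or were exposed for 2, 6 or 24 h (3 arrays at each time) to 100 µM 8-CPT-cAMP, which enters cells and acts like cAMP. The 6 Kin- arrays at 6 and 24 h serve here as the comparison over the same interval, because all untreated arrays are labelled 0 h. Whether replicate arrays stand for separate cultures is not said in the labels, so p-values reflect array-to-array spread that may be technical only.

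In S49 cells cAMP binds the regulatory subunits of PKA and frees its catalytic subunits, which phosphorylate CREB and many other proteins. WT S49 cells are known for stopping in the G1 phase of the cell cycle and, later, for dying under cAMP, and Kin- cells are known to do neither. In G1, pocket proteins of the retinoblastoma family hold E2F factors and the DREAM complex at the promoters of replication and mitosis genes, which lowers the transcription of those genes. The comparison asks which transcripts changed after the first 6 h of exposure.

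Levels are square roots of the deposited values, 22626 probe sets per array, here called units. On what scale the values were deposited is not known here; the square roots run from 0.612 to 16.4, the range of log2 intensities, and 1 unit would be a doubling if they are. A change is the 24 h mean minus the 6 h mean ± its standard error (SE) from a linear model fitted with limma to all 26 arrays, and a probe set passed at a Benjamini-Hochberg adjusted p under 0.05. For 12393 named genes, 1 probe set stands for the gene: that whose mean over the 26 arrays is highest. "Rose" and "fell" are used only for genes that passed. Values on single arrays are given in the order of arrays 3, 18 and 38 at 6 h and 4, 19 and 39 at 24 h.

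Arrays 3 and 4 stood apart from the others of their groups. Arrays numbered 1 to 14 differed from arrays numbered 16 to 47 in every group. At 24 h the root mean square difference was 0.454 units between arrays 4 and 19, 0.398 between arrays 4 and 39, and 0.260 between arrays 19 and 39. Most falls were smaller between arrays 3 and 4 than between the other arrays: the median change of the mitosis genes was −1.15 for array 4 minus array 3, −2.41 for array 19 minus array 18, and −1.83 for array 39 minus array 38. Results are therefore also given for arrays 16 to 47 alone where that ends a call or moves a count by over 1.5 times, and the cause of the difference between the array sets was not tested.

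**Figure D1:**
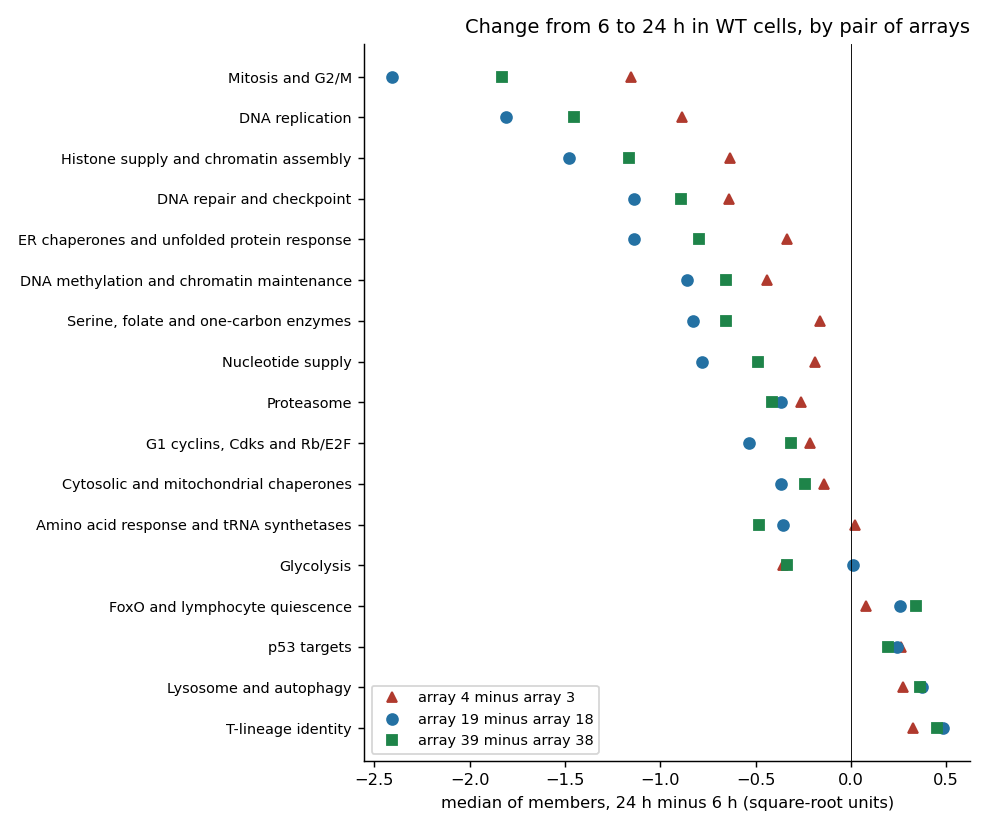
Median change from 6 to 24 h (x axis, square-root units) over the members of the gene lists whose WT median change is at least 0.2 in size, for array 4 minus array 3 (triangles), array 19 minus array 18 (circles) and array 39 minus array 38 (squares). The mitosis and DNA replication lists lie lowest in all 3 pairs, and the triangles lie nearest to 0 for most lists that fell.

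In WT cells 4028 of 22626 probe sets passed between 6 and 24 h (17.8%), 1956 higher and 2072 lower at 24 h. By gene, 1221 rose (9.85%) and 1220 fell (9.84%), together 19.7% of 12393, and 307 rose and 330 fell by at least 1 unit. For 3300 genes (26.6%) the 24 h arrays did not overlap with the 6 h arrays. The median change over all genes was 0.02. With arrays 16 to 47 alone 5344 probe sets passed. With a spread estimated from the 6 arrays only, 1883 passed, of which 1786 also passed in the fit to 26 arrays. The changes are the same in both fits, and only the spread differs. By gene, 578 of 12393 rose and 588 fell in that setting. There 25 of 48 replication and 56 of 65 mitosis genes fell, as did 10 of 24 ER chaperone and 6 of 31 proteasome genes. Falls were also seen in 4 of 23 nucleotide supply, 3 of 25 chaperone and 2 of 14 one-carbon genes. Of 58 ribosome biogenesis genes 2 fell, a smaller share than that of all genes. Of 32 tRNA charging genes 0 fell. Rises were seen in 9 of 36 lysosome, 4 of 37 T-lineage and 3 of 36 T-cell activation genes.

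Kin- cells showed no probe set that passed over the same interval (0 of 22626, 0.0%), with 465 at an unadjusted p under 0.05 in the limma fit, which is 2.06%. The size of the change had a median of 0.0594 units over genes in Kin- cells and 0.133 in WT cells, and its 95th percentile was 0.259 and 1.03. The change differed between the lines for 2226 probe sets (9.84%), 1084 higher and 1142 lower in WT cells, and for 1384 genes (11.2%; 5.64% higher and 5.53% lower). That count was 3525 with arrays 16 to 47 alone and 3980 with each consecutive run of array numbers from 0 to 24 h treated as a block. Kin- cells differ from WT cells as a line, so time in culture and PKA cannot be told apart within WT cells alone.

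**Figure D2:**
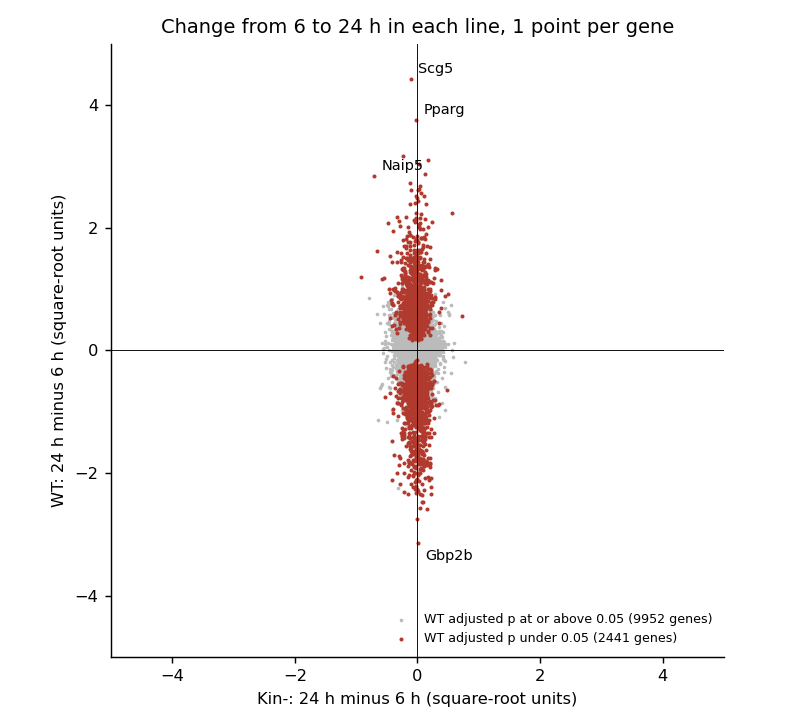
Change from 6 to 24 h for each of 12393 genes in WT cells (y axis) and Kin- cells (x axis), both in square-root units; red marks the 2441 genes that passed in WT cells. The points form a vertical band: WT changes reach 4.43 (Scg5) and −3.14 (Gbp2b), and Kin- changes stay between −0.91 and 0.78.

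The machinery of DNA replication and of mitosis fell almost as a whole. Of 48 measured replication genes 45 fell and 0 rose, with a median change of −1.44, and of 65 mitosis and G2/M genes 61 fell and 0 rose, with a median of −1.82; 1 mitosis gene rose with arrays 16 to 47 alone. Over all genes 9.84% fell and the median was 0.02. In Kin- cells the medians of these lists were 0.04 and 0.04, and the change differed between the lines for 45 replication and 60 mitosis genes, all lower in WT cells, against 5.53% of all genes. Because these are bulk RNA samples, fewer cells in S phase or mitosis and less RNA of these genes per cell cannot be told apart.

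At 6 h the median level of the mitosis genes was 0.22 above that of untreated cells, with 15 members higher and 3 lower at 6 h (11.0% and 11.1% of all genes). At 24 h the median lay 1.57 below the untreated level. The replication genes were 0.29 below the untreated level at 6 h, with 12 members lower and 3 higher, and 1.81 below it at 24 h. Comparisons with 0 h and with 6 h share the 6 h or 24 h arrays, so these values are given side by side only.

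**Figure D3:**
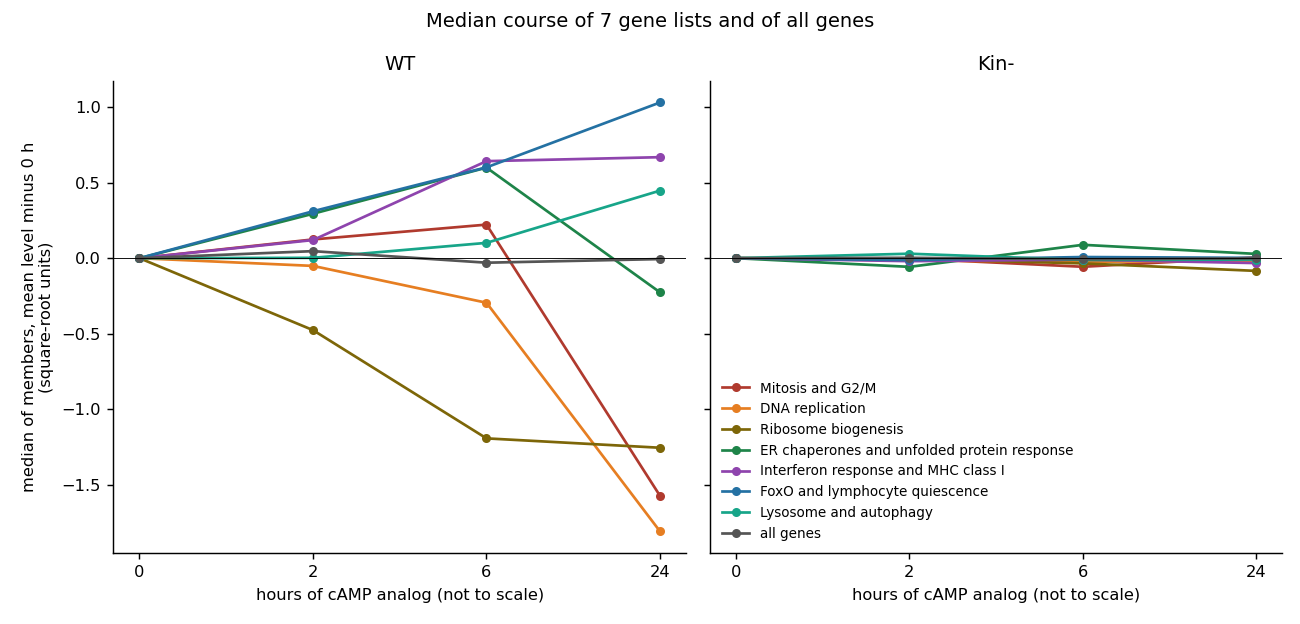
Median over the members of 7 gene lists, and over all genes, of the mean level at 0, 2, 6 and 24 h minus that at 0 h (y axis, square-root units; time axis not to scale), in WT cells (left) and Kin- cells (right). In WT cells mitosis and replication drop between 6 and 24 h to −1.57 and −1.81, ribosome biogenesis is already at −1.19 at 6 h, and ER chaperones turn from 0.60 to −0.23; in Kin- cells every line stays near 0.

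Replication genes fell at each step of the process. Cdc6, which loads the helicase onto origins, read 11.34, 10.76 and 10.75 at 6 h and 10.14, 7.47 and 8.59 at 24 h, a change of −2.22 ± 0.37 (adjusted p = 0.000138). Mcm5, a subunit of the MCM2-7 helicase, read 12.15, 12.05 and 12.01 and then 10.94, 8.92 and 9.79 (−2.18 ± 0.27, adjusted p = 5.19e-06). No 24 h array of either gene reached the lowest 6 h array, and array 4 was the highest of the 24 h arrays. All 6 MCM subunits fell, with changes from −2.18 to −1.07, although 0 of the 6 had passed between 0 and 6 h.

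Cdc45, which joins the MCM ring to form the active helicase, fell by 2.36 ± 0.21, from 9.28, 9.50 and 9.51 to 7.82, 6.29 and 7.08. Among polymerases and their partners, the 10 listed subunits of DNA polymerases alpha, delta and epsilon and of primase all fell, with changes from −1.79 to −0.80. The clamp Pcna fell by 1.24 ± 0.09, from 14.02, 14.22 and 14.11 to 13.13, 12.60 and 12.91. Rfc3, a subunit of replication factor C, the loader of that clamp, fell by 2.34 ± 0.41, and all 5 subunits of the loader fell. Of 6 origin recognition genes 4 fell, with changes of −1.71 for Orc1 and −1.42 for Orc6, while Orc4 changed by −0.07 (adjusted p = 0.916).

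The mitosis genes include the cyclins and kinases that drive the division. Ccna2, which encodes cyclin A2, read 11.06, 11.55 and 11.57 at 6 h and 9.34, 8.75 and 9.08 at 24 h (−2.34 ± 0.14, adjusted p = 6.66e-10). Cdk1, the kinase that drives entry into mitosis, read 12.47, 12.65 and 12.62 and then 11.32, 10.36 and 10.71 (−1.78 ± 0.14, adjusted p = 1.88e-08). Both were within 0.2 units of their untreated means at 6 h. Melk, a mitotic kinase gene, fell by 2.57 ± 0.19, from 9.22, 9.70 and 9.66 to 7.47, 6.73 and 6.67. Ttk, whose product is the Mps1 kinase of the spindle checkpoint, fell by 2.48 ± 0.20, after a rise of 0.73 between 0 and 6 h (adjusted p = 0.00583).

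Structural genes of the mitotic apparatus fell too. Tacc3, which stabilises spindle microtubules, fell by 2.34 ± 0.19, and Anln, which encodes the cytokinesis protein anillin, by 2.33 ± 0.19. The 3 measured members of the Ndc80 complex, which ties kinetochores to microtubules, fell, with changes from −2.15 to −1.93. All 7 listed kinesins fell, with changes from −2.08 to −0.63, as did the 3 genes of the chromosomal passenger complex, from −2.23 to −1.42. Condensin was split: 4 of 5 genes fell, with −2.10 for Ncapd2, while Smc4 changed by 0.25. The other members that did not pass were Cdc25a, Cdc25b and Zwint, with changes of −0.25, −0.10 and −0.18.

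The 12 largest falls of all genes whose arrays did not overlap also included genes outside these lists or not yet described. Pmf1, a kinetochore gene, read 8.52, 8.32 and 8.23 at 6 h and 6.93, 4.57 and 5.29 at 24 h, with a change of −2.76 ± 0.34. Ercc6l, a helicase of anaphase DNA bridges, fell by 2.60 ± 0.19, from 7.82, 8.04 and 7.75 to 5.91, 5.06 and 4.85. Ska1, a kinetochore gene, fell by 2.31 ± 0.23, and Fignl1, an ATPase of homologous recombination, by 2.30 ± 0.25, although a second probe set of Ska1 changed by −0.02 and one of Fignl1 by 0.18. Bub1, a spindle checkpoint kinase gene that was not among these 12, fell by 2.23 ± 0.25, with a second probe set at −0.44 (adjusted p = 0.107).

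Promoters were searched for short words that are known binding letters of the factors named above. Windows from 250 bases before to 50 after the start of transcription (RefSeq, GRCm38.p6, both strands searched) were found for 9887 of 12393 genes. The CHR word TTTGAA, the cell cycle homology region bound by DREAM, was in 34 of 56 mitosis promoters (60.7%), in 86 of 272 promoters of genes that fell by at least 1 unit (31.6%), in 17 of 256 that rose by at least 1 unit (6.64%), and in 13.0% of all promoters. It was in 5 of 39 replication promoters (12.8%), near the share of all promoters, and in 8 of 27 promoters of the T-lineage list (29.6%), of which 0 genes fell. The E2F words TTTCCCGC, TTTCGCGC, TTTGGCGC and TTTGCCGC were in 13 of 39 replication promoters (33.3%), 7 of 28 promoters of repair genes (25.0%), and 3.57% of all promoters. They were in 5 of 56 mitosis promoters (8.93%) and in 0 of 13 promoters of histone supply, although 12 of the 14 genes of that list fell. A match is a description of letters, and the words were chosen with these results known.

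The windows below were taken in order of the fall from replication and mitosis promoters with the word wholly before the start of transcription. Not every chromosome was used, so promoters of genes that fell more can be missing. Each window has 80 bases, read 5′ to 3′ on the strand of the gene, with the searched word in capitals. Those of Rfc3 (chr5:151651209-151651288, minus strand), Cdc6 (chr11:98907977-98908056, plus strand) and Mcm5 (chr8:75109324-75109403, plus strand) show E2F words, and the capitals of Mcm5 hold 2 overlapping words.
Rfc3: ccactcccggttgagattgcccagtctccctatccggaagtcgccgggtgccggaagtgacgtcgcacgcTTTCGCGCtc
Cdc6: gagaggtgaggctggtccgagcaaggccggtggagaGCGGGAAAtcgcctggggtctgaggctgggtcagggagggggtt
Mcm5: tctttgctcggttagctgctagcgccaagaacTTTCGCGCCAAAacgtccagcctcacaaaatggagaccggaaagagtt

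Those of Ccnf (chr17:24251410-24251489, minus strand), Ncapd2 (chr6:125191667-125191746, minus strand), Ncapg (chr5:45669845-45669924, plus strand) and Ccnb2 (chr9:70421679-70421758, minus strand) show the CHR word, which ends 9 bases before the start of transcription in Ccnf and 25 before it in Ncapg.
Ccnf: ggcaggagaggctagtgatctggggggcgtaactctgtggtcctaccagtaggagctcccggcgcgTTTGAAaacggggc
Ncapd2: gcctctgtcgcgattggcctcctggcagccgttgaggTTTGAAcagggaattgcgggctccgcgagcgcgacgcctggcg
Ncapg: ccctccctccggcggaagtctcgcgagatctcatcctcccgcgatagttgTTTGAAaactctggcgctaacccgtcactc
Ccnb2: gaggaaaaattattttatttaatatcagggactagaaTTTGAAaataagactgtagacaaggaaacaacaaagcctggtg

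Regulators of the G1 phase fell in part. Among 22 measured genes of G1 cyclins, their kinases and the Rb/E2F system, 8 fell, 1 rose and 13 did not pass. Over all genes 9.84% fell and 9.85% rose. Skp2, the ubiquitin ligase subunit that removes the inhibitor p27, read 8.76, 8.54 and 8.19 at 6 h and 7.22, 5.98 and 6.90 at 24 h (−1.79 ± 0.22, adjusted p = 5.8e-06); 1 of its 6 probe sets changed by only −0.07. Ccne2, which encodes the S-phase cyclin E2, fell by 1.72 ± 0.28 and between 0 and 6 h it had changed by −1.92. Its neighbour in function Ccne1, which had fallen by 1.43 by 6 h, changed by −0.50 afterwards (adjusted p = 0.0985).

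Ccnd3, the D-type cyclin of T cells, did fall after 6 h, by 1.13 ± 0.15, from 11.40, 10.80 and 10.91 to 9.94, 9.74 and 10.04. Rbl2, which encodes the pocket protein p130 of the DREAM complex, was the member that rose, by 1.19 ± 0.21, from 7.94, 8.40 and 8.32 to 8.91, 9.73 and 9.59. Of 6 E2F genes measured only the repressor E2f8 passed, with a fall of 1.39 ± 0.15. Cdkn1b, the gene of the inhibitor p27, had risen by 1.63 by 6 h and then changed by −0.12 (adjusted p = 0.935). Of 7 CDK inhibitor genes only Cdkn2c passed; it fell by 0.90 ± 0.29 and no longer passed when array 4, 18 or 38 was left out.

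Genes that supply S phase also fell. Over all genes 9.84% fell and 9.85% rose. Of 14 genes of histone supply and chromatin assembly 12 fell and 0 rose, with a median of −1.07: H2ax, a histone variant known for marking DNA breaks, fell by 1.84 ± 0.26 after a rise of 1.10 by 6 h, and the histone chaperone genes Asf1b and Nasp fell by 1.64 ± 0.15 and 1.47 ± 0.16. Of 15 genes of DNA methylation and chromatin maintenance 10 fell and 0 rose. They included Hells, a remodeller that helps DNA methylation, which read 9.84, 9.87 and 9.87 at 6 h and 8.82, 7.03 and 7.52 at 24 h (−2.07 ± 0.29), Dnmt1, the maintenance methyltransferase (−1.34 ± 0.20), and all 3 measured subunits of Polycomb repressive complex 2, with changes from −1.05 to −0.55. Dnmt3a and Dnmt3b, which set new methylation, changed by 0.19 and 0.13 and did not pass.

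Nucleotide supply was already low at 6 h, when 19 of its 23 genes lay below 0 h, and 9 of the 23 fell after 6 h, with 0 rising. Over all genes 11.1% lay below 0 h at 6 h, and 9.84% fell afterwards. Rrm1 and Rrm2, the subunits of ribonucleotide reductase, fell by 1.80 ± 0.16 and 1.23 ± 0.16, and the thymidine kinase gene Tk1 by 1.56 ± 0.32. The count of 9 was 15 with arrays 16 to 47 alone, where 1 gene rose, 16 without array 4 and 5 without array 19. Falls over all genes, 1220 in the main fit, were 1565, 1280 and 987 in these settings. Of 32 repair and checkpoint genes 23 fell and 2 rose, against 9.84% and 9.85% of all genes. The checkpoint kinase gene Chek1 fell by 2.05 ± 0.31 and the recombination gene Brca1 by 1.84 ± 0.20; 2 of 4 probe sets of Chek1 and 1 of 4 of Brca1 did not pass. The repair genes that rose, Xrcc6, a subunit of the Ku end-joining complex, by 1.03, and the mismatch repair gene Msh3 by 0.45, had been lower at 6 h than at 0 h. In that list 1 gene rose in place of 2 with arrays 16 to 47 alone or without array 3, 4, 18 or 39.

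**Figure D4:**
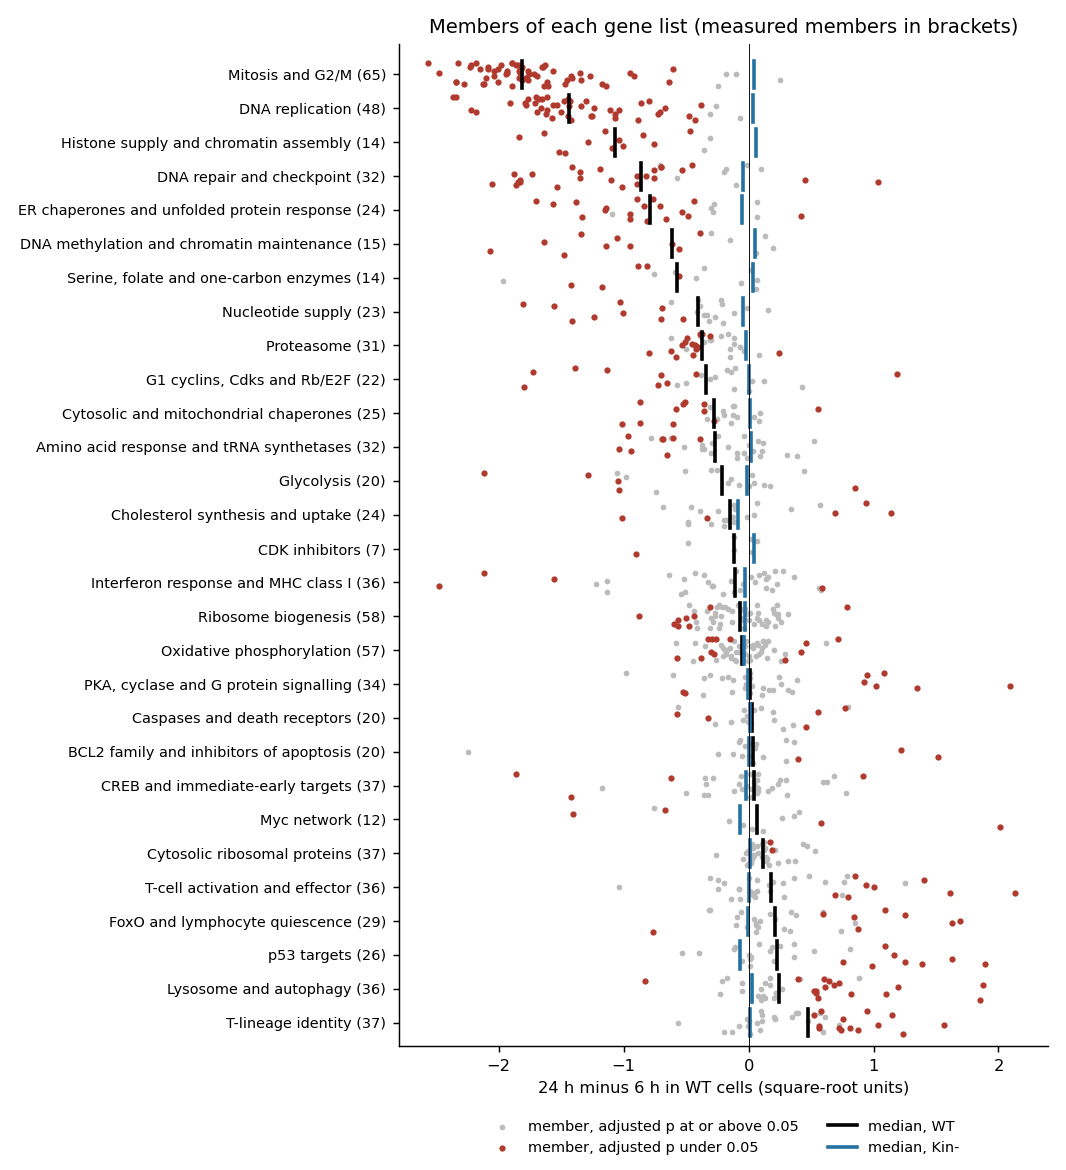
Change from 6 to 24 h in WT cells (x axis, square-root units) for each member of 29 gene lists, ordered by their WT median, with measured members in brackets; red points passed, grey points did not, and bars mark the median in WT (black) and Kin- cells (blue). All red points of the mitosis and replication lists lie below 0 and nearly all of the lysosome, p53, FoxO and T-lineage lists above it, while the Kin- medians stay near 0.

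Genes of cell growth had largely changed before 6 h. Of 58 genes of ribosome biogenesis, the assembly of new ribosomes, 55 were lower at 6 h than at 0 h, with a median of −1.19. After 6 h only 8 fell and 1 rose, against 9.84% and 9.85% of all genes, and the median change was −0.07. Noc4l, a factor of the small subunit, fell by 0.88 ± 0.13, and Wdr12, a factor of the large subunit, rose by 0.79 ± 0.10, from 10.11, 9.61 and 9.64 to 10.61, 10.61 and 10.52, after a fall of 1.33 by 6 h. The 8 falls became 17 with arrays 16 to 47 alone, where falls over all genes went from 1220 to 1565. The falls of the list were 15 without array 4, where 1280 of all genes fell. Myc, the growth regulator gene, read 8.56, 8.06 and 8.44 at 6 h and 8.89, 8.13 and 8.11 at 24 h, and its change of 0.02 ± 0.34 did not pass (adjusted p = 0.982), after a fall of 2.14 by 6 h.

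Within the Myc network, the changes after 6 h lay in partners and rivals of Myc. Mxd4, a repressor that competes for the shared partner Max, rose by 2.01 ± 0.17, from 10.05, 10.14 and 10.27 to 11.83, 12.31 and 12.36. Mxd3, of the same family, fell by 1.40 ± 0.18, Mlx fell by 0.67 and Mlxip rose by 0.58. A second probe set of Mlx changed by −0.24 and did not pass. The other 8 of 12 genes did not pass. The 24 h arrays of Mxd4 lay more than 1.5 units above every 6 h array. Another probe set of Mxd4 changed by 0.56 and did not pass. Of 37 genes of cytosolic ribosomal proteins 2 rose, Rps15 by 0.19 and Rps24 by 0.17, and 0 fell, below the 9.85% and 9.84% of all genes. The other probe sets of Rps24 disagreed: 1 rose by 1.11 (adjusted p = 0.00633), and the rest changed by −0.32 to 0.16 and did not pass. On the probe sets that stand for the genes, neither passed without array 18, 38 or 39, and 7 genes of the list rose with arrays 16 to 47 alone.

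Of 14 enzyme genes of serine, folate and one-carbon metabolism 5 fell and 0 rose, against 9 that were already lower at 6 h than at 0 h, and 8 fell with arrays 16 to 47 alone. Mthfd2, the mitochondrial folate enzyme of growing cells, read 10.56, 10.86 and 11.03 at 6 h and 10.04, 8.91 and 9.25 at 24 h (−1.42 ± 0.24, adjusted p = 0.000147). Psat1, of serine synthesis, fell by 1.17 ± 0.25, and Ahcy, which clears the product of methylation reactions, by 0.88 ± 0.08. Among 32 genes of tRNA charging and the response to amino acid shortage 8 fell and 0 rose, against 9.84% and 9.85% of all genes. With arrays 16 to 47 alone 16 fell and 1 rose, 4 fell without array 19, and 0 fell with a spread from the 6 arrays only. Asns, asparagine synthetase, fell by 1.04 ± 0.22, and 5 of the 18 tRNA synthetases fell, Aars most, by 0.97 ± 0.15.

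Chaperones of the endoplasmic reticulum (ER) reversed their course. At 6 h 16 of 24 ER chaperone and unfolded protein response genes were higher than at 0 h and 0 lower, with a median of 0.60. Between 6 and 24 h 17 fell and 1 rose, with a median of −0.79, and the median at 24 h was 0.23 below that of untreated cells. Over all genes 11.0% were higher and 11.1% lower at 6 h, and 9.84% fell and 9.85% rose afterwards. Creld2, an ER stress gene, read 11.38, 11.72 and 11.91 at 6 h and 10.26, 9.64 and 10.01 at 24 h (−1.70 ± 0.15, adjusted p = 6.21e-08), against an untreated mean of 10.51. Sdf2l1 fell by 1.56 ± 0.18 and the disulfide isomerase gene Pdia6 by 1.38 ± 0.18, with a second probe set of Pdia6 at −0.39. The fall of the oxidase gene Ero1a, 1.33 ± 0.39 (adjusted p = 0.0188), was lost when array 3, 4, 18 or 19 was left out, and its other probe sets changed by −0.66 and −0.15 and did not pass.

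The ER stress response element, CCAAT and CCACG with 9 bases between them, was in 9 of 22 promoters of this list (40.9%) and in 17 of 9887 promoters in all (0.172%). The windows of Creld2 (chr15:88819489-88819568, plus strand), Pdia6 (chr12:17266460-17266539, plus strand) and Hsp90b1, the gene of the ER chaperone GRP94 (chr10:86705503-86705582, minus strand; a fall of 1.14), show it in capitals on either strand.
Creld2: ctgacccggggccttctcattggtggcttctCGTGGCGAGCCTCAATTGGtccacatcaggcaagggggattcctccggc
Pdia6: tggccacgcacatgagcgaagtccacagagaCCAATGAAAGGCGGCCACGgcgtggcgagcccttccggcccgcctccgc
Hsp90b1: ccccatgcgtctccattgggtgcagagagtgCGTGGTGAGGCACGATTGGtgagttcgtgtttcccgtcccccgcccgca

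Other parts of protein upkeep fell by smaller amounts. Of 31 proteasome genes 14 fell and 1 rose, against 9.84% and 9.85% of all genes. Their median was −0.37, and the rise was lost without array 3, 19, 38 or 39. In the 19S cap, which recognises and unfolds ubiquitinated proteins, 9 of 17 fell, led by Psmd1 with −0.80 ± 0.10, and in the 20S core 5 of 14. Of 25 cytosolic and mitochondrial chaperone genes 10 fell and 1 rose, or 6 without array 3 or without array 19. Dnajb1, an HSP70 partner of the heat shock response, fell by 1.01 ± 0.16, and the HSP90 partners Stip1 and Fkbp4 by 0.87 ± 0.12 and 0.87 ± 0.14, with a second probe set of Fkbp4 at 0.03. Of 57 oxidative phosphorylation genes 4 rose and 8 fell, against 9.85% and 9.84% of all genes. Together 21.05% of the list passed, near the 19.7% of all genes. The falls were 3 without array 19 and 5 without array 3 or 18, and 7 genes rose with arrays 16 to 47 alone. The cytochrome c gene Cycs fell by 0.58, with other probe sets at −0.05 and −0.235, and the complex I gene Ndufa6 rose by 0.72.

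Glycolysis held few but large falls. Of 20 genes 4 fell and 1 rose, against 9.84% and 9.85% of all genes. The rise was lost without array 4, 18, 19, 38 or 39. Slc2a1, the glucose transporter GLUT1, read 12.26, 11.02 and 11.90 at 6 h and 8.75, 10.48 and 9.60 at 24 h (−2.12 ± 0.58, adjusted p = 0.0121), and the enzyme genes Tpi1, Pgam1 and Pfkl fell by 1.28 ± 0.36, 1.04 ± 0.15 and 1.04 ± 0.34. Here array 4 was the lowest of the 24 h arrays for Slc2a1, unlike in the cell cycle lists. Slc2a1 did not pass without array 3, without array 4 or with arrays 16 to 47 alone, and the list had 2 falls without array 3, 4 or 39. Tpi1 did not pass without array 3 or 39 or with arrays 16 to 47 alone, nor Pfkl without array 3, 4, 18, 38 or 39, while Pgam1 passed in each of these settings.

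Lysosome genes, of the compartment that digests cell material, rose in part. Of 36 lysosome and autophagy genes 15 rose and 1, Gla, fell, with a median of 0.25, against 9.85% of all genes that rose. The fall of Gla, 0.83 in size, did not pass without array 18, 19 or 38 or with a spread from the 6 arrays only. Ctsa, a protease that also protects lysosomal glycosidases, read 6.71, 6.46 and 6.42 at 6 h and 8.48, 8.42 and 8.32 at 24 h (1.88 ± 0.12, adjusted p = 1.02e-09). The cathepsin gene Ctsd rose by 1.19 ± 0.10 and the beta-galactosidase gene Glb1 by 1.10 ± 0.09. All 3 were within 0.2 units of their untreated means at 6 h, and their 24 h arrays did not overlap with the 6 h arrays.

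Ctsl had another course: its mean had fallen from 11.03 to 9.52 by 6 h and it then rose by 1.85 ± 0.29, from 9.79, 9.47 and 9.31 to 10.99, 11.86 and 11.28, near its untreated mean. Of 7 lysosomal glycosidases 5 rose, and of 11 genes of the autophagy machinery 1 did, Atg7 by 0.39. The E-box TCACGTGA, a word of the lysosomal CLEAR element, was in 5 of 29 promoters of the list (17.2%) and in 1.53% of all promoters. The window of Ctsd (chr7:142387883-142387962, minus strand) shows it in capitals. No other promoter of a member that rose held the word wholly before the start on the chromosomes used.
Ctsd: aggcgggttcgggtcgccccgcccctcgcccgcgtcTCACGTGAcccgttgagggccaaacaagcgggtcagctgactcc

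Of 26 p53 targets 8 rose and 0 fell, against 9.85% and 9.84% of all genes. Gadd45a, a stress gene of growth arrest, read 10.46, 10.55 and 10.20 at 6 h and 12.27, 12.23 and 12.38 at 24 h (1.89 ± 0.49, adjusted p = 0.00795), while Cdkn1a and Mdm2, also targets of p53, changed by −0.12 and 0.01 and did not pass. Btg2, an anti-proliferative gene, rose by 1.63 ± 0.21, Trp53inp1 by 1.39 ± 0.23 with a second probe set at 0.01, and Sesn1, an inhibitor of mTORC1 signalling, by 1.25 ± 0.25.

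Of 29 FoxO and lymphocyte quiescence genes 7 rose and 1 fell, against 9.85% and 9.84% of all genes. With arrays 16 to 47 alone 14 rose and 2 fell. This list shares Btg1, Btg2 and Sesn1 with the p53 list. Txnip, which limits glucose uptake, read 9.80, 11.09 and 10.65 and then 11.59, 12.65 and 12.37 (1.69 ± 0.37, adjusted p = 0.00195). Btg1 rose by 1.09 ± 0.14, and the transcription factor gene Foxo3 by 0.88 ± 0.21. Tsc22d3, the glucocorticoid-induced gene GILZ, fell by 0.77, and passed neither on a log2 scale nor without array 4, 18, 19, 38 or 39. The list had been higher than at 0 h already at 6 h, with a median of 0.60, and its median at 24 h was 1.03.

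Apoptosis genes mostly did not pass. Of 20 BCL2 family and inhibitor genes 3 rose and 0 fell, against 9.85% and 9.84% of all genes. Bcl2l11, which encodes the cell killer BIM, read 10.17, 10.65 and 10.37 at 6 h and 11.27, 12.38 and 12.08 at 24 h (1.51 ± 0.19, adjusted p = 6.61e-06). Its probe sets disagreed: 2 others rose by 0.91 and 1.28, 1 changed by 0.55 (adjusted p = 0.0857), and 1 fell by 0.56 (adjusted p = 0.0168), so the direction for the gene depends on the probe set. Birc3, an inhibitor of apoptosis, rose by 1.22 ± 0.23 with a second probe set at 0.14. Bid, a pro-apoptotic gene, rose by 0.39 ± 0.12 after a fall of 0.93 by 6 h, with no call without array 4, 18, 38 or 39. A second probe set of Bid changed by 0.17 and did not pass. Bcl2, Bcl2l1 and Mcl1, which protect cells, changed by 0.00, 0.02 and 0.06 and did not pass. Of 20 caspase and death receptor genes 3 rose and 2 fell, not far from the shares of all genes. Among the rises were Pdcd4 with 0.77 ± 0.16 and Casp9 with 0.56 ± 0.14, and a second probe set of Casp9 at 0.12 did not pass. Of this list 1 gene rose without array 19, where Casp9 did not pass, and 5 without array 4. Bnip3, named here after its values were seen, had the largest change of the BCL2 list, −2.24, and did not pass (adjusted p = 0.123).

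**Figure D5:**
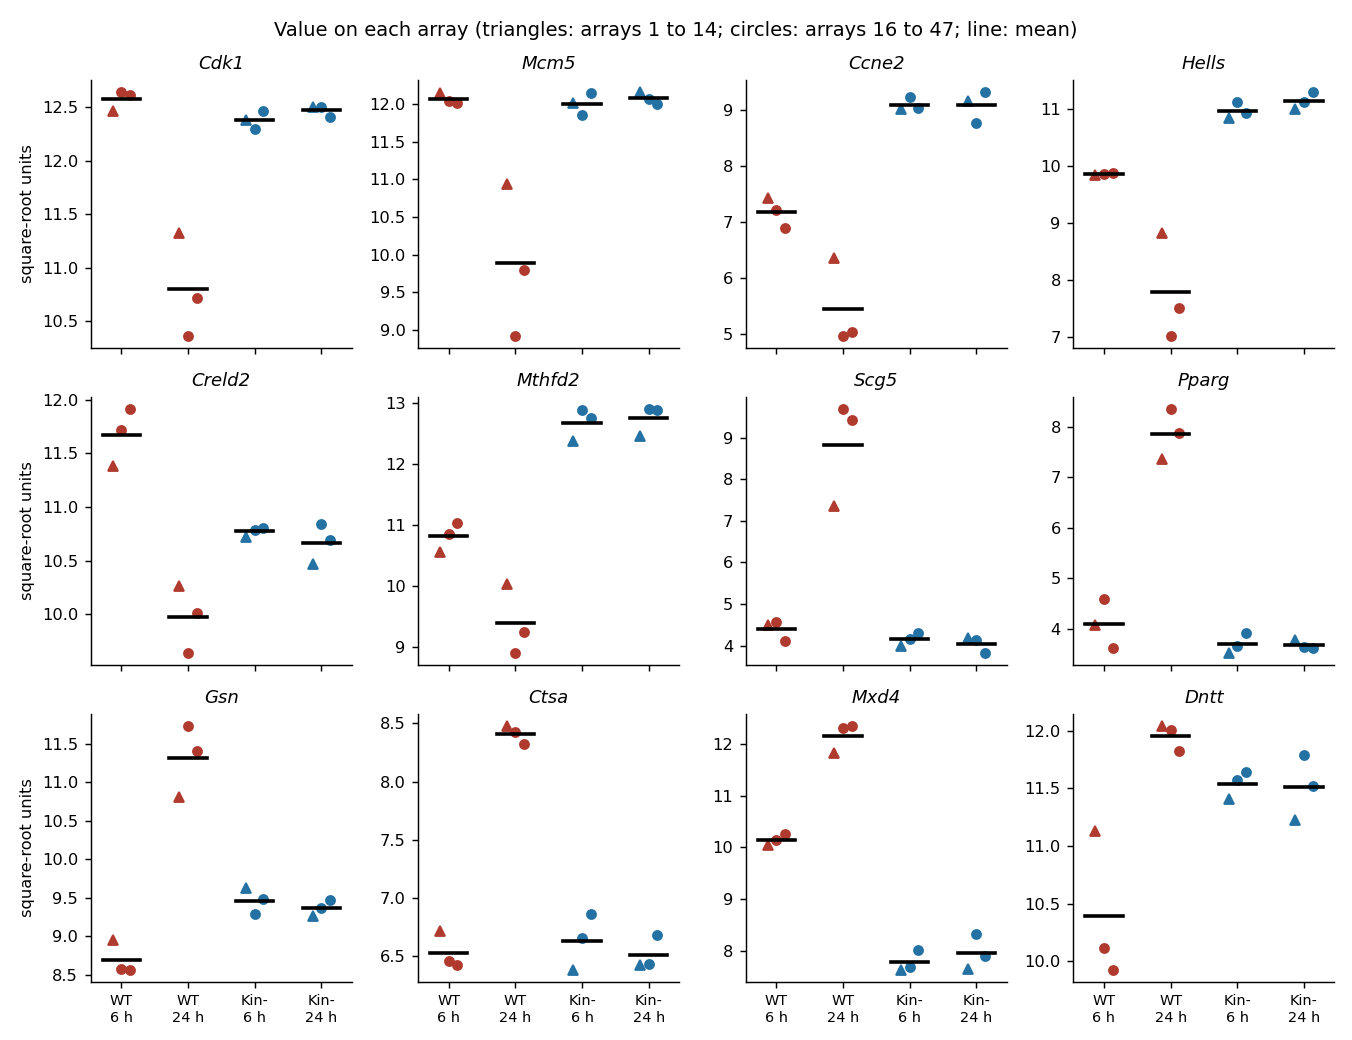
Level on each array (y axis, square-root units) of 12 genes at 6 and 24 h in WT (red) and Kin- cells (blue); triangles are arrays 1 to 14, circles arrays 16 to 47 and lines means of 3 arrays. In WT cells Cdk1, Mcm5, Ccne2, Hells, Creld2 and Mthfd2 are lower on every 24 h array than on any 6 h array and Scg5, Pparg, Gsn, Ctsa, Mxd4 and Dntt higher, while the Kin- arrays of the 2 times overlap for each gene.

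T-lineage genes that passed all rose. Of 37 measured members 14 rose, against 9.85% of all genes, and 0 fell, with a median of 0.47; 9 rose without array 18. Several had been low at 6 h. Dntt, the terminal transferase of antigen receptor joints, read 11.13, 10.11 and 9.93 at 6 h and between 11.82 and 12.04 on the 3 arrays at 24 h (1.56 ± 0.22, adjusted p = 2.2e-05), which returned it to its untreated mean of 12.06. Notch3, a receptor of early T cells, rose by 1.24 ± 0.27 after a fall of 1.97, with a second probe set at 0.61 that did not pass. Rag1, the recombinase gene, rose by 1.04 ± 0.21, from 6.76, 5.90 and 5.58 to 7.17, 7.27 and 6.92, and remained far below its untreated mean of 11.56. Ptcra, which pairs with the beta chain in immature T cells, changed by −0.57 (adjusted p = 0.663).

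Receptor genes of mature T cells were among those that rose. In the CD3 complex, which carries the T-cell receptor signal, Cd3d rose by 0.81 ± 0.09 and Cd3g by 0.88, and Cd3e and Cd247 changed by 0.61 and 0.38 and did not pass. The costimulatory receptor gene Cd28 rose by 1.15 ± 0.35 with overlapping arrays, and did not pass when array 3, 19 or 39 was left out. The difference between the lines passed for 5 members of this list, all higher in WT cells, against 5.64% of all genes.

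Of 36 T-cell activation and effector genes 8 rose and 0 fell, against 9.85% and 9.84% of all genes. In this list 1 gene fell with arrays 16 to 47 alone or without array 3. Ctla2b, a cathepsin inhibitor gene, rose by 2.13 ± 0.21, from 7.71, 7.79 and 7.24 to 9.41, 10.15 and 9.59, and its near copy Ctla2a by 1.40 ± 0.22; probes may not fully separate these genes. Both went on from rises of 4.57 and 4.65 by 6 h. Socs3, a brake on cytokine signalling, rose by 1.61 ± 0.32 after a fall of 0.99, and Prdm1, the gene of the repressor Blimp-1, by 1.01 ± 0.15 from a 6 h mean 0.05 above that of 0 h. By contrast Ctla4, Tnfrsf18 and Gzmb, which had risen by 4.18, 4.49 and 2.91 by 6 h, changed by 0.61, 0.75 and 1.25 with adjusted p of 0.36, 0.0913 and 0.141. Tnfrsf18 passed with arrays 16 to 47 alone.

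The interferon list held large falls in few genes. Of 36 interferon response and MHC class I genes 20 were higher at 6 h than at 0 h. After 6 h 3 fell and 1 rose, below the shares of all genes, 9.84% and 9.85%. With arrays 16 to 47 alone 8 fell and 3 rose, and without array 3, 6 fell; 0 rose without array 19 or 39. Gbp3, a guanylate-binding protein of host defence, read 6.54, 8.50 and 8.68 at 6 h and 5.13, 5.36 and 5.79 at 24 h (−2.48 ± 0.35, adjusted p = 2.62e-05). Gbp2 read 5.03, 7.76 and 7.94 and then 2.87, 5.64 and 5.86 (−2.12 ± 0.61, adjusted p = 0.0166), with overlapping groups, array 3 being low, and no longer passed without array 4, 18 or 38. Gbp2b, singled out after its values were seen as the largest fall of any gene, changed by −3.14 ± 0.75 (adjusted p = 0.00422); probes of these paralogs may read each other. All 8 immunity-related GTPases of the list had been higher at 6 h than at 0 h, and 2 fell afterwards. Ifi204 differed: it fell by 1.56 ± 0.21 after a fall of 2.81 by 6 h.

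Of 37 CREB and immediate-early targets 3 fell and 1 rose, below the shares of all genes, 9.84% and 9.85%; the count of rises was 5 with arrays 16 to 47 alone, 3 without array 3 or 4, and 2 without array 38 or 39. Fos, an immediate-early factor gene, read 7.29, 8.50 and 7.95 at 6 h and 6.71, 5.51 and 5.92 at 24 h (−1.87 ± 0.42, adjusted p = 0.00268), still above its untreated mean of 3.59. Nr4a1, an orphan nuclear receptor gene, fell by 1.42 ± 0.39, from 9.93, 10.29 and 10.66 to 8.81, 8.86 and 8.96, and did not pass without array 38. Crem, whose product ICER represses cAMP targets, read 9.44, 10.77 and 8.88 at 6 h and 9.70, 10.27 and 9.58 at 24 h (0.16 ± 0.39, adjusted p = 0.916), against 4.14 untreated. Sgip1, an endocytosis adaptor gene outside this list, went on rising, by 1.33 ± 0.33 after 7.20 by 6 h.

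In the cAMP pathway itself 6 of 34 genes rose and 2 fell, together 23.53%, against 19.7% of all genes. Ramp1, an accessory protein of receptors for CGRP, read 9.88, 8.71 and 8.86 at 6 h and 11.40, 11.11 and 11.22 at 24 h (2.10 ± 0.24, adjusted p = 1.59e-06). The cyclase genes Adcy6 and Adcy7 rose by 1.02 ± 0.09 and 0.94 ± 0.10, Gnai3, an inhibitory G protein subunit, by 1.09 ± 0.20, and Rapgef3, the cAMP sensor Epac1, by 1.35 ± 0.35 with overlapping arrays and no call without array 18. Among 5 PKA subunits Prkaca and Prkar1a fell, by 0.52 ± 0.11 and 0.51 ± 0.11, after rises of 0.33 and 1.37 by 6 h. The phosphodiesterase gene Pde4b, which degrades cAMP, rose by 0.92 ± 0.21. Ramp3, after a rise of 6.36 by 6 h, changed by −0.60 (adjusted p = 0.153) although its arrays did not overlap.

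Some genes that passed were near their untreated level until 6 h, but the share of all genes that were so was not counted. Over all genes the change from 0 h had a median size of 0.132 units at 2 h and 0.125 at 6 h. Both lie within the 0.5 units of the rule used next, so its counts are a description only. Of the 1221 genes that rose, 663 had 2 h and 6 h means within 0.5 units of the 0 h mean, and 115 of these rose by at least 1 unit; of the 1220 that fell, 770 and 175 did. The largest of these rises was also the largest of all: Scg5, which encodes the neuroendocrine chaperone 7B2, read 4.50, 4.57 and 4.10 at 6 h and 7.35, 9.69 and 9.42 at 24 h (4.43 ± 0.36, adjusted p = 3.54e-08). Pparg, the lipid-sensing nuclear receptor gene, read 4.08, 4.59 and 3.62 and then 7.36, 8.35 and 7.87 (3.76 ± 0.28, adjusted p = 9.91e-09). For both genes array 4 was the lowest of the 24 h arrays and lay over 2.5 units above every 6 h array.

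Pnpla7, a lysophospholipase gene, rose by 2.73 ± 0.20, from 6.87, 7.18 and 7.36 to 9.59, 10.17 and 9.85, and Pafah2, an acetylhydrolase of oxidised phospholipids, by 2.64 ± 0.14, from 6.23, 5.84 and 6.13 to 8.45, 8.60 and 9.07. The fatty acid isomerase gene Eci3 rose by 2.03 ± 0.47 with a wide spread at 6 h. In the cholesterol list 3 of 24 genes rose and 2 fell, together 20.83%, near the 19.7% of all genes that passed. In that list 1 gene rose without array 39, and 5 rose and 6 fell with arrays 16 to 47 alone. Tm7sf2, a sterol reductase gene, was among the rises with 1.14 ± 0.20. The rest of the 10 largest late rises were Cd96, a receptor of T and NK cells, with 2.57 ± 0.18, Vpreb1, the surrogate light chain gene of early B cells, with 2.53 ± 0.22, the integrin gene Itgam with 2.16 ± 0.28, the scaffold gene Dlgap4 with 2.17 ± 0.17 and the dynein gene Dnah8 with 2.07 ± 0.27, of which a second probe set changed by 0.02.

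The other members of the 12 largest rises with separate arrays followed other courses. Cxcr6, a chemokine receptor gene, read 4.10, 5.64 and 4.50 at 6 h and 5.70, 9.16 and 8.70 at 24 h (3.10 ± 0.54). Ms4a4b, a membrane protein gene of T cells, rose by 3.17 ± 0.46 on 1 probe set and changed by 0.05 on another. Tktl1, a transketolase-like gene, rose by 2.88 ± 0.53 after a rise of 1.75, and Naip5, an inflammasome sensor with close paralogs, by 2.85 ± 0.62. Plac8 and the cystatin gene Cst7 had lower means at 6 h than at 0 h and rose by 3.04 ± 0.65 and 2.68 ± 0.30. The splicing factor gene Esrp1 rose by 2.62 ± 0.22, from a 6 h mean of 3.00 against 4.37 at 2 h and 2.70 at 0 h. Gsn, which encodes the actin-severing protein gelsolin, rose by 2.62 ± 0.23, from 8.95, 8.58 and 8.57 to 10.80, 11.73 and 11.41, after a fall of 0.87; 4 of its 6 probe sets rose and 2 changed by 0.03 and 0.29.

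The labelled cell type was checked with 10 measured T-lineage markers. Cd3d, Cd3e, Cd3g, Cd247, Thy1 and Ptprc had 6 h means between 10.01 and 12.49, while Cd5, Cd2 and Cd4 were at 3.34, 4.94 and 5.41, near or below the array medians of 5.40 to 5.53. The summed level of the 10 was 88.3 to 89.5 on the 6 h arrays and 90.0 to 94.6 on the 24 h arrays. Single markers of other cell types rose: 2 of 8 myeloid (Itgam, from 4.45 to 6.61, and the Fc receptor gene Fcgr3, from 2.97 to 4.71), 2 of 7 B cell (Cd22 and Blk), 1 of 5 NK cell (Nkg7, at 2.21 and 2.85) and 0 of 9 fibroblast and epithelial markers. With arrays 16 to 47 alone Cd22, Blk and Nkg7 did not pass. A second probe set of Cd22 changed by 0.14 and did not pass on all arrays either.

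The summed level of the 8 myeloid markers was 29.7 to 30.4 at 6 h and 31.9 to 36.5 at 24 h, and that of the 7 B cell markers 30.1 to 31.1 and 31.4 to 32.8. NK cell markers summed to at most 12.4 and at most 13.9, and fibroblast and epithelial markers to 28.4 to 29.1 and 28.4 to 30.7. The other 6 myeloid and 5 B cell markers did not pass: Ighm changed by 0.23 (adjusted p = 0.907) and the rest by at most 0.08 in size. Arrays give no true 0, so their absence cannot be shown. The part of other cells in the rises of Itgam, Fcgr3, Vpreb1 or Cd96 was not tested.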

How the data were processed

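The authors deposited 1 score per probe set and array (26 arrays, 22626 probe sets, 0.375 to 267); neither the method behind them nor the scale is given in the sources used here. Their square roots had array medians of 5.40 to 5.53 and were treated as log2-like units without further normalization; a fold change in the usual sense needs that assumption. A probe set named 1 gene for 20380 probe sets, several for 691 and none for 1555.

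With limma 3.58.1 in R 4.3.3, 1 mean per group was fitted to all 26 arrays without covariates. Contrasts were moderated with eBayes and adjusted over all probe sets by the Benjamini-Hochberg method; the fit was checked on simulated data. Each of 12393 genes was represented by its brightest probe set, and 4956 genes had several. Genes were named by rule: the 12 largest separated rises and falls, the 4 largest called members of each list, the 10 largest late rises and falls, the 10 largest differences between the lines in each direction, and fixed anchor genes.

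The comparison, the 33 gene lists and the promoter words were chosen with earlier results of these data known, and the complexes within lists after their values were seen. Alternatives changed the scale, normalization, filter, array set, block, weights, arrays fitted and single arrays. Promoter windows and gene symbols came from RefSeq (GRCm38.p6). The number of arrays limits the precision: the median SE of a change was 0.127 units.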

Additional observations from a re-analysis of the deposited data

Results flagged for a closer look

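The change from 6 to 24 h differed between WT and Kin- cells, by a limma contrast of the difference itself, for 2226 probe sets. Among the genes named by rule with the largest such differences, those higher in WT cells (WT change minus Kin- change, square-root units) were Scg5 with 4.54, Pparg with 3.79, Naip5 with 3.56, Ms4a4b with 3.41, Plac8 with 3.02, Cxcr6 with 2.92, Pnpla7 with 2.86, Tktl1 with 2.77, Gsn with 2.72 and Cst7 with 2.63. Those lower in WT cells were Ercc6l with −2.76, Pmf1 with −2.75, Melk with −2.60, Ttk with −2.56, Ccna2 with −2.56, Gbp3 with −2.56, Bub1 with −2.46, Cdc45 with −2.44, Ccnf with −2.38 and Tacc3 with −2.38. These genes were picked for the size of this difference, so the values describe them and were given no further test. Groups of 3 arrays were too small for a search for single outlying arrays.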

How the results depend on the processing

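Of 4028 probe sets that passed in WT cells, those that also passed under another setting had the same sign under every setting run. Where only the spread was estimated anew, as with only the 6 arrays, the sign could not differ. Arrays 1 to 14 alone leave 1 array at 6 h and 1 at 24 h in each line, so no count is given for them. The count of probe sets that passed was 7322 with array weights and 1883 with only the 6 arrays. Leaving out 1 array gave 3219 to 4466. For the difference between the lines (2226) the count was 3411 with the array set as a term and 3525 with arrays 16 to 47. It was 4959 with array weights, and 1753 to 2804 without 1 array. In Kin- cells array weights gave 3 and leaving out 1 array gave 0 to 2, against 0. The labels share no replicate numbers between the groups; with runs of consecutive array numbers as a block, the counts were 5808 in WT cells and 3980 for the difference. Deviations from the group means correlated at 0.543, 0.345 and 0.305 within the runs 3 and 4, 18 and 19, and 38 and 39, but also at 0.297 between arrays 38 and 19. What the runs are is not said in the labels. Of 140 named genes that passed, 54 did not with only the 6 arrays, 8 on a log2 scale, 6 with arrays 16 to 47, and 9 to 12 without 1 array. Cars, with overlapping arrays, turned from a fall to 0.0337 with arrays 1 to 14 only. The causes were not tested.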

Other observations

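The CCAAT box, the word bound by NF-Y, was in 73.2% of mitosis promoters, 86.4% of ER chaperone promoters, 84.6% of histone supply promoters and 69.2% of one-carbon enzyme promoters, against 38.1% of all promoters; the ER stress response element itself contains CCAAT. It was also in 89.5% of cholesterol promoters, a list of which 3 genes rose and 2 fell. The cAMP response element TGACGTCA was in 3.85% of the promoters of CREB and immediate-early targets and in 2.75% of all promoters. Of 18 tRNA synthetases 15 fell between 0 and 6 h and 5 between 6 and 24 h, when 9.84% of all genes fell, and of 8 subunits of the CCT chaperonin, which folds actin and tubulin, 8 and 3 did. These comparisons share the 6 h arrays.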
